A study of Mus musculus with 6 samples.

Results

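The RNA polymerases and the general transcription factors of mouse oocytes were followed across meiotic maturation. The members were all probe sets that the array annotation maps to exactly 1 gene symbol starting with Polr1, Polr2, Polr3, Gtf2, Gtf3 or Taf and a digit, together with Tbp, Ccnh, Cdk7, Mnat1, Ercc2, Ercc3 and Supt20, and without Taf4b. This gave 116 of 21646 tested probe sets and 69 of 11429 genes. Ercc2 had no probe set of 1 symbol, and 5 probe sets that carry the symbols of Taf9, Polr2k or Polr2l beside another gene were left out.

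Oocytes with an intact germinal vesicle (GV), the large nucleus of meiotic prophase, were set against ovulated eggs arrested in metaphase II (MII), which had extruded a polar body. There were 3 biological replicates per stage, each of 300 pooled oocytes on 1 array (the titles number replicates 2 and 3, and the unnumbered sample of a stage is called replicate 1), from mice aged 22 to 24 days; no source used here gives the strain. All mice received 5 IU of equine chorionic gonadotropin, and GV oocytes were collected 44 to 46 h later from large antral follicles and stripped of cumulus cells by pipetting. MII mice also received 5 IU of human chorionic gonadotropin, and ovulated eggs were taken from the oviducts 14 h later and freed of cumulus cells with hyaluronidase. The collection medium, the same for both stages, held 5 µM milrinone, which keeps GV oocytes from resuming meiosis. Amplification started from 10 ng of total RNA a sample and took 2 rounds of cDNA synthesis with MultiStart primers. The values are log2 expression values as the authors deposited them. A difference of 1 is 2-fold, and a probe set was called at a Benjamini-Hochberg adjusted p under 0.05 by limma over all tested probe sets.

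RNA polymerase I makes the large ribosomal RNAs, RNA polymerase II the messenger RNAs, and RNA polymerase III transfer RNAs and other small RNAs. At promoters of RNA polymerase II, TFIID recognises the core promoter, TFIIA and TFIIB follow, TFIIF brings the polymerase, and TFIIE and TFIIH complete the complex, with TFIIH opening the DNA and phosphorylating the polymerase tail. Fully grown oocytes and MII eggs transcribe little or nothing, and the egg's stored messages and proteins supply the machinery with which the embryo starts its own transcription.

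Over probe sets, correlations were 0.988 to 0.991 within a stage and 0.885 to 0.906 between stages. Array medians were 6.10 to 6.12 at the GV and 5.47 to 5.49 at the MII stage, so the directions of small differences depend on how the arrays are scaled to each other. What set this gap, and by which rule the probe sets in the table were kept, is unknown here, and every share over all genes or probe sets refers to those in the table. Each was therefore also computed with array medians made equal (which moved the median difference over all probe sets by 0.62), after quantile normalization (0.34), with the hybridization controls made equal (-0.40) and with the poly-A controls made equal (-0.87). These are called the median, quantile, hybridization and poly-A scalings. The poly-A controls averaged 4.28 to 4.71 on the GV and 5.14 to 5.43 on the MII arrays, below the median of every array. The hybridization controls averaged 8.94 to 9.82 on the GV and 9.42 to 9.86 on the MII arrays. All 12 oocyte markers had means over 5.85, the median probe set mean, and 5 of them (Zp1, Zp2, Zp3, Nobox and Figla) were called lower and 2 (Bmp15 and Dppa3) higher in MII. The log2 of their summed signal was 15.26 to 15.36 on the GV and 14.94 to 15.01 on the MII arrays. Of 12 markers of cumulus and granulosa cells 8 were measured, 2 of them above that median, and 3 were called lower and 0 higher in MII by limma (Fshr, Inhba and Nr5a2), where 37.8% of all genes were called lower. The log2 of their summed signal was 8.64 to 8.88 on the GV and 7.90 to 8.29 on the MII arrays, and the part of this in the differences below was not tested. In bulk samples, fewer cells of a type and less RNA per cell cannot be told apart.

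The kinase and translocase of TFIIH fell by at least 4-fold, each on its probe set with the highest mean. So did the 3 measured subunits of TFIIE and TFIIF and the second-largest subunit of RNA polymerase II. Of 15 TFIID genes 5 were called higher as deposited and 0 by limma in the hybridization and poly-A scalings. In these 2 scalings only 0.48% and 0.3% of all probe sets were called higher. Of the 116 probe sets 53 were called lower and 16 higher in MII by limma, against 34.1% and 10.9% of all tested probe sets. Each gene was also represented by its brightest probe set, that with the highest mean over the arrays of both stages. By these 34 of 69 genes were lower and 7 higher, against 37.8% and 10.5% of all genes, and 28 were not called. Falls of at least 2-fold were called for 28 of the 69 genes and of at least 4-fold for 19, against 23.1% and 9.84% of all genes. Among probe sets these were 39 and 25 of 116, against 20.6% and 8.82% of all probe sets. The median log2 difference was -0.46 over the 69 genes and -0.20 over all genes. Over the 69 genes it turned to 0.16 in the median scaling and 0.05 in the quantile scaling, and was -0.86 in the hybridization and -1.33 in the poly-A scaling.

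The spread between arrays of a stage was small beside these falls, with a median SD of 0.17 for the GV and 0.20 for the MII arrays over the 116 probe sets. Every MII value lay below every GV value for 36 genes and above for 11, against 43.3% and 14.6% of all genes. For probe sets this held for 58 and 19, against 39.4% and 14.6%. Of the 34 falls 27 were called in all 5 scalings, and 0 of the 34 genes were called higher in any of them. All 7 rises were also called under the median and quantile scalings, but 0 of them in the hybridization or poly-A scaling. There 0.48% and 0.3% of all probe sets were called higher, and Taf2 was called lower in the poly-A scaling. Without GV replicate 2 the rises numbered 3 genes and 6 probe sets, where 7.15% of all probe sets were called higher. Without MII replicate 3 they numbered 4 genes, where 8.68% of all probe sets were. Without any 1 MII array they numbered 9 probe sets, where 7.69% to 8.86% of all probe sets were. Means over 5.85 were found for 53 member genes. Of the genes called lower, 16 ended below 5.47, the lowest median of an MII array, and because background was not measured here, those falls may be larger than their values.

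**Figure D1:**
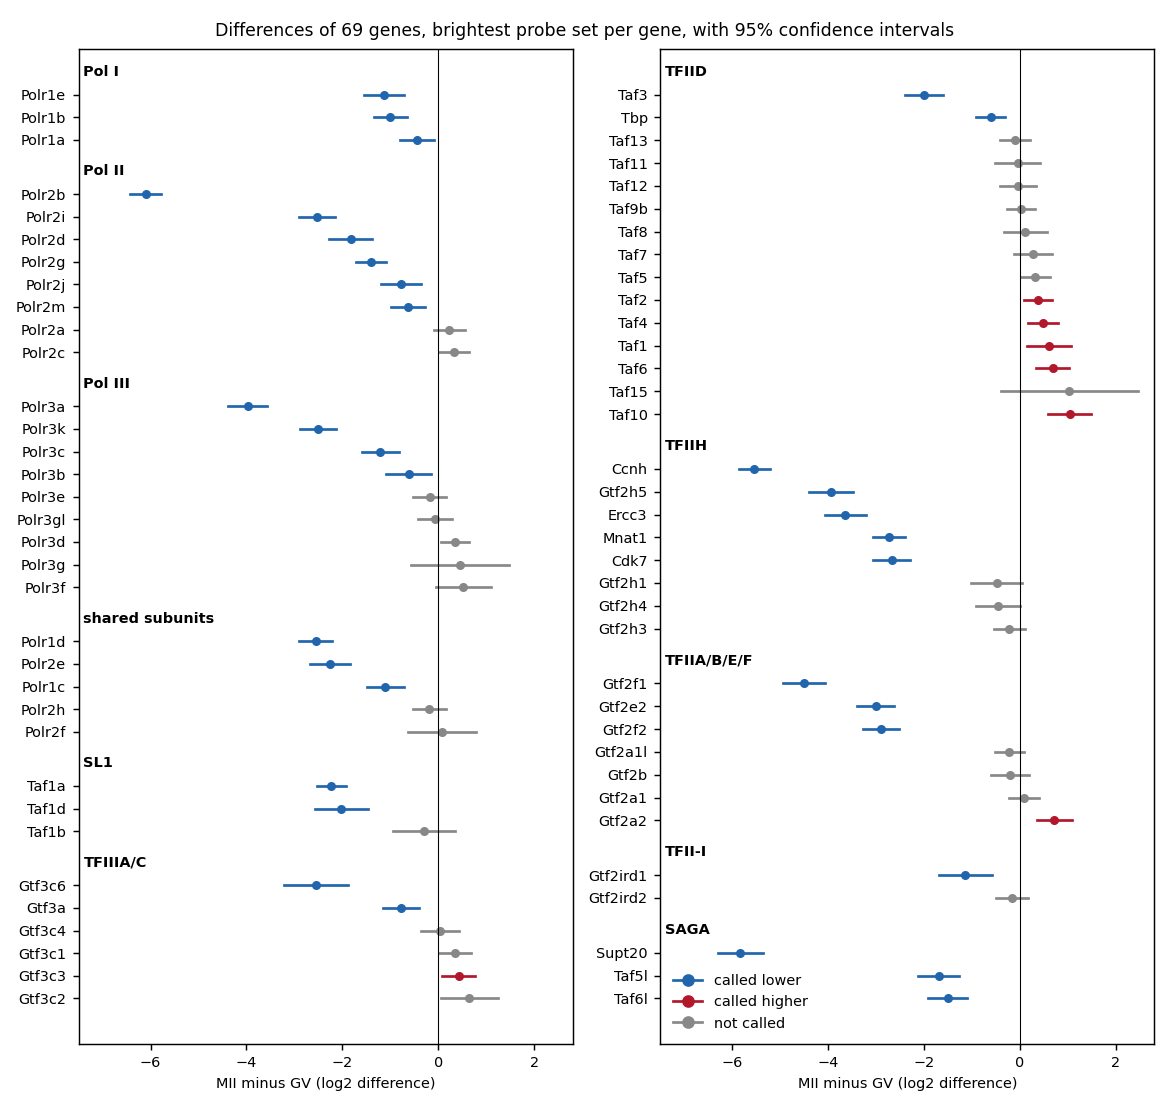
Log2 difference between MII and GV oocytes (x axis) for each of the 69 genes by its brightest probe set, grouped by complex, with points for the fitted difference and lines for its 95% confidence interval (limma, 3 arrays per stage). Polr2b, Supt20 and Ccnh lie farthest to the left. On the deposited scale 5 TFIID genes are called higher, and 0 in the hybridization and poly-A scalings, where 0.48% and 0.3% of all probe sets are.

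The upstream sequences of 5 genes are shown because the results turn on these transcripts: the kinase module of TFIIH (Cdk7 and Mnat1), the steepest fall among the polymerase subunits (Polr2b), and a paralogue pair of TFIID and SAGA (Taf5 and Taf5l). Each is the 250 bases before the RefSeq transcription start in GRCm38.p6, read 5′ to 3′ on the gene's strand, at chr13:100730943-100731192 (minus strand) for Cdk7, chr12:73123467-73123716 (plus strand) for Mnat1, chr5:77310234-77310483 (plus strand) for Polr2b, chr19:47067498-47067747 (plus strand) for Taf5 and chr8:124021398-124021647 (minus strand) for the first of 2 starts of Taf5l. Capitals mark any of 4 motifs, searched on both strands, and each motif was counted on its own where matches overlap. The TATA box was searched as the letters TATAAA. The GC box, bound by Sp factors, was searched as the letters GGGCGG. The CCAAT box was searched by the letters of its name. The core that ETS factors bind was searched as the letters CCGGAAG.
Cdk7: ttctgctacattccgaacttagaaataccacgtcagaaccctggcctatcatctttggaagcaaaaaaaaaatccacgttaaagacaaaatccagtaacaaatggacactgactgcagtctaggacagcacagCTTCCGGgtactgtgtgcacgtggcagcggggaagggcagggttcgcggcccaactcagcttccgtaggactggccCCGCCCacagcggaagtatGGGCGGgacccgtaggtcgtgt
Mnat1: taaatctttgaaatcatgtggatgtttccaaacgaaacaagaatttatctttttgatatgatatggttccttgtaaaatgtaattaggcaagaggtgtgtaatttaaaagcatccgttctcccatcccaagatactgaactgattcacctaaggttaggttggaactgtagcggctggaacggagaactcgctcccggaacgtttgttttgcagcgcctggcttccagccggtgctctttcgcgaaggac
Polr2b: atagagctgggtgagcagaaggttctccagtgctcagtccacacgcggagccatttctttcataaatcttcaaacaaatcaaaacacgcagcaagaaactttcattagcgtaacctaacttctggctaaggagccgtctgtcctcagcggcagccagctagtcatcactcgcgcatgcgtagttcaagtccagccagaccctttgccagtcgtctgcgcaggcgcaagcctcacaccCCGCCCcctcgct
Taf5: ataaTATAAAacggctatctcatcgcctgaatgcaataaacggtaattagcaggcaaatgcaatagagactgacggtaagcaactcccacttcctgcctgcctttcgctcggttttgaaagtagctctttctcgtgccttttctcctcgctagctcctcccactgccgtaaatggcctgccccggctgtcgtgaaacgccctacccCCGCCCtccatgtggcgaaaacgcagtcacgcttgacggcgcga
Taf5l: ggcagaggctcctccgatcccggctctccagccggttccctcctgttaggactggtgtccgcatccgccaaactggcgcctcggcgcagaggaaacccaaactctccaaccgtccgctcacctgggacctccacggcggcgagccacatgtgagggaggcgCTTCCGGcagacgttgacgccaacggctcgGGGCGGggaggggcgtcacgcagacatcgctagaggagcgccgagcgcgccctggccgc

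The Cdk7 window held 2 GC boxes and 1 ETS core, and the Polr2b window 1 GC box. The Taf5 window held 1 TATA box and 1 GC box, and the Taf5l window shown 1 GC box and 1 ETS core. The window of the second Taf5l start, not shown, held 5 GC boxes and 0 ETS cores. The Mnat1 window held none of these letters. Windows of 300 bases, from 250 before to 50 after the start, were found for 60 of the 69 genes. The ETS core was in the windows of 24 of these genes (40.0%), against 19.3% of 9267 genes with a probe set of 1 symbol. A GC box was in 68.3% against 65.7%, CCAAT in 31.7% against 43.4% and a TATA box in 15% against 9.57%. Among the genes called lower 39.3% held the ETS core, and among those not called 42.3%. These are descriptions of letters, not of bound sites.

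In RNA polymerase II the message of the second-largest subunit fell more than that of any other member, while that of the largest was not called. Polr2b, which forms the active centre together with the largest subunit, was at 11.34, 11.54 and 11.29 on the 3 GV arrays and at 5.28, 5.44 and 5.14 on the 3 MII arrays. All MII values lay far below all GV values, a difference of -6.10 ± 0.14 (SE; limma adjusted p = 7e-09), a 68.8-fold fall that ended below the array medians. Polr2a, the largest subunit, whose tail is phosphorylated during transcription, was at 6.27, 6.55 and 6.65 in GV and at 6.71, 6.66 and 6.78 in MII oocytes. The MII values were all slightly higher, and the difference of 0.23 ± 0.15 was not called (95% confidence interval -0.10 to 0.55), but it turned to -0.18 in the hybridization scaling and to -0.65 and a called fall in the poly-A scaling, and was called higher at 0.85 in the median scaling and 0.89 in the quantile scaling.

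The other subunits peculiar to this polymerase lay between these. Polr2i, a zinc-binding subunit, fell by 2.53, from 10.18 ± 0.23 to 7.66 ± 0.20 (SD, n = 3). Polr2d and Polr2g, which together form the stalk of the enzyme, differed by -1.83 ± 0.20 and -1.41 ± 0.14 (SE) and were both called lower. Polr2j, an assembly subunit, and Polr2m, which binds the assembled enzyme, were called lower at -0.77 and -0.64, and neither fall was called in the median scaling or in the quantile scaling. Polr2c, which starts assembly with Polr2j, differed by 0.32 and was not called. In all 6 of 8 genes were called lower and 0 higher by limma (0 by limma without moderation), against 37.8% and 10.5% of all genes. The median difference was -1.09. The falls of Polr2b, Polr2i, Polr2d and Polr2g were called in all 5 scalings.

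In RNA polymerase III the steepest fall was that of the largest subunit. Polr3a was at 10.51, 10.89 and 10.30 in GV and at 6.56, 6.40 and 6.81 in MII oocytes, a difference of -3.97 ± 0.18 (SE; limma adjusted p = 9e-08). Its values did not overlap between stages, and a further Polr3a probe set differed by -5.53. Polr3b, the second-largest subunit, was at 6.64, 6.81 and 6.54 in GV and at 5.54, 6.35 and 6.23 in MII oocytes. This fall of 0.62 ± 0.21, on an _s_at probe set, was close to the threshold (limma adjusted p = 0.036), was at 0.01 in the median scaling and 0.05 in the quantile scaling, and lost its call without any 1 GV array or without MII replicate 1, at -0.68 to -0.37. The other Polr3b probe set was at -0.32 and not called.

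Polr3k, which serves RNA cleavage and termination, fell by 2.51 ± 0.17 (SE), and 3 of its other 4 probe sets were called lower too. Polr3c, which helps the enzyme to start transcription, fell by 1.21 ± 0.17, although its dimmer probe set was at 0.79 and not called. Polr3d, Polr3e and Polr3f were not called by their brightest probe sets, at 0.35, -0.18 and 0.52, although another of Polr3e fell by 1.40 and another of Polr3f rose by 0.81. The interchangeable subunits Polr3g and Polr3gl had signals near the low end of the range, at 3.17 ± 0.17 and 3.06 ± 0.21 (SD, n = 3) in GV oocytes, and were not called at 0.45 and -0.07. Both changed sign in some scalings or without MII replicate 3. Of 9 genes 4 were lower and 0 higher by limma (1 higher without moderation), near the 37.8% of all genes called lower, against 10.5% called higher. The median difference was -0.18 as deposited, 0.44 in the median scaling and 0.06 in the quantile scaling.

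RNA polymerase I had 3 measured genes, all called lower, where 37.8% of all genes were. The median difference was -1.0 (-0.47 without _s_at and _x_at probe sets). Polr1b, the second-largest subunit, was at 5.57, 5.98 and 5.76 in GV and at 4.91, 4.69 and 4.71 in MII oocytes, a difference of -1.0 ± 0.15 (SE; limma adjusted p = 0.00035). Polr1e, a subunit that helps to load the enzyme on its promoter, fell by 1.13 ± 0.19 on an _x_at probe set and was at -0.47 and not called on the other. The largest subunit, Polr1a, was at 6.41, 6.70 and 6.60 in GV and at 6.32, 6.19 and 5.89 in MII oocytes. Its fall of 0.44 ± 0.16 lay at the threshold (limma adjusted p = 0.047) and turned to 0.19 in the median scaling and 0.23 in the quantile scaling. Leaving out replicate 2 or 3 of either stage ended the call, at -0.47 to -0.31, as did a replicate block. The other Polr1a probe set, dimmer over all arrays though both had a GV mean of 6.57, differed by -1.26 and was called lower. The falls of Polr1b and Polr1e were called in all 5 scalings.

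Of 5 subunits that the enzymes share, 3 fell, each in all 5 scalings, where 37.8% of all genes were called lower as deposited. The median difference was -1.10 (-0.18 without _s_at and _x_at probe sets). Polr1d, shared by polymerases I and III, was at 9.89, 9.78 and 9.81 in GV and at 7.13, 7.54 and 7.14 in MII oocytes, a difference of -2.56 ± 0.15 (SE). Its other 3 probe sets differed by -4.77, -5.41 and -4.18, all called lower. Polr1c, its partner in the same 2 enzymes, fell by 1.10. Polr2e, shared by all polymerases, fell by 2.25 on its brightest probe set but was at -0.14 and not called on the other one, while Polr2f and Polr2h, shared in the same way, were not called at 0.08 and -0.18.

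The 2 largest subunits of each enzyme were also compared within the same arrays, a comparison that no additive scaling between arrays can alter. The difference of differences was -6.33 ± 0.18 (SE, n = 3 per stage) for Polr2b against Polr2a and -0.57 ± 0.10 for Polr1b against Polr1a. For Polr3b against Polr3a it was 3.36 ± 0.30. In each pair the stages did not overlap, which in an exact 2-sided permutation test gives p = 0.1, the smallest that 3 against 3 arrays allow (0.12 after Benjamini-Hochberg adjustment over 6 pairs). No such test of 3 against 3 arrays can pass 0.05.

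**Figure D2:**
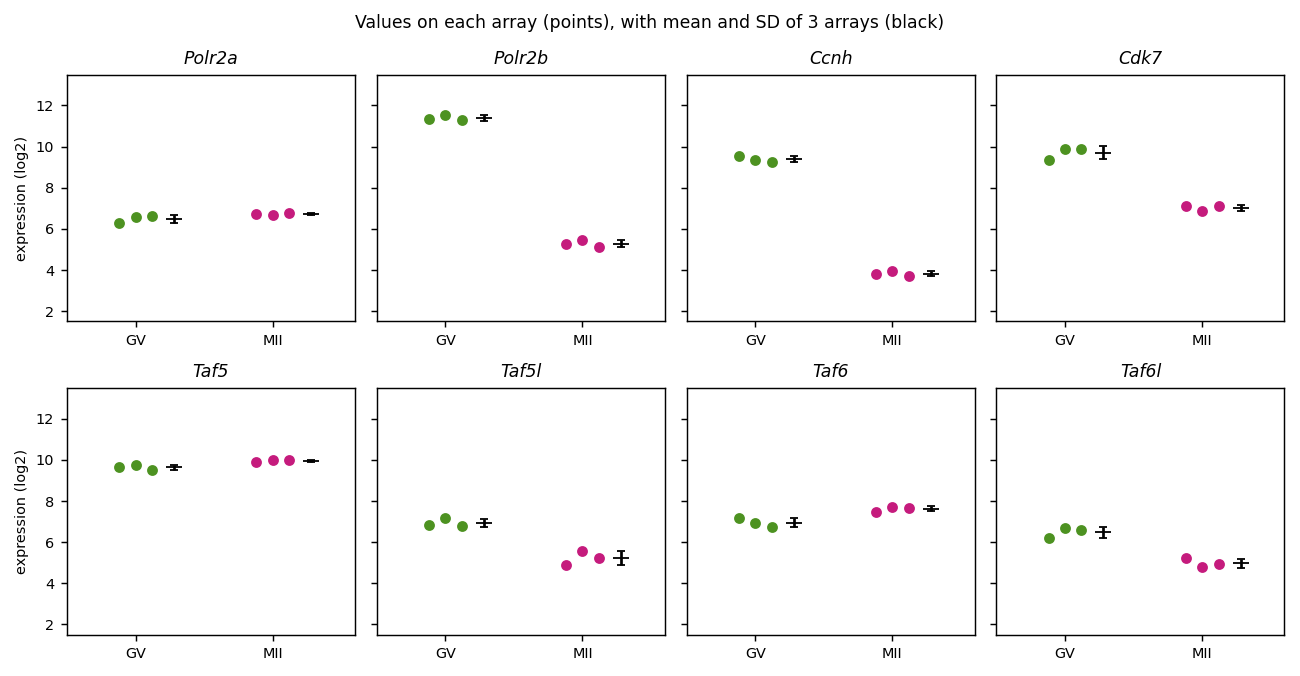
Log2 expression (y axis) of 8 probe sets on each of the 3 GV and 3 MII arrays (coloured points), with the mean and SD of each stage in black. Polr2b, Ccnh, Cdk7, Taf5l and Taf6l are lower in all MII arrays, while Polr2a, Taf5 and Taf6 are slightly higher on the deposited scale, which the poly-A scaling reverses.

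TFIIH carries a core with DNA helicases and a kinase module of Cdk7, Ccnh and Mnat1, which phosphorylates the tail of RNA polymerase II and also activates cell cycle kinases. All 3 members of the kinase module fell. Ccnh, cyclin H, was at 9.52, 9.37 and 9.23 in GV and at 3.83, 3.97 and 3.69 in MII oocytes. The difference of -5.54 ± 0.14 (SE; limma adjusted p = 9.9e-09) is a 46.6-fold fall, with MII values near the low end of the range. It comes from an _s_at probe set, a type that may match several transcripts. Of the other Ccnh probe sets, both of type _at, the brighter fell by 3.03 and the dim one was called higher at 0.40. Cdk7, the kinase itself, whose upstream window held the ETS core, was at 9.35, 9.86 and 9.89 in GV and at 7.10, 6.87 and 7.10 in MII oocytes. It fell by 2.68 ± 0.17. Another Cdk7 probe set was called lower at -1.68, and a dim one was at -0.07 and not called. Mnat1, which holds kinase and cyclin together, was at 7.89, 7.99 and 7.66 in GV and at 4.98, 5.30 and 5.05 in MII oocytes, and fell by 2.73 ± 0.15.

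In the core, Ercc3, the translocase that opens promoter DNA, was at 6.92, 7.61 and 7.36 in GV and at 3.86, 3.57 and 3.53 in MII oocytes, and fell by 3.64 ± 0.19 (SE). Gtf2h5, a small subunit that stabilises the complex, fell by 3.94 ± 0.20, though a dim second probe set was at -0.33 and not called. The remaining core subunits Gtf2h1, Gtf2h3 and Gtf2h4 were not called by their brightest probe sets, at -0.48, -0.23 and -0.46. Thus 5 of 8 genes were lower and 0 higher by limma (0 without moderation), against 37.8% and 10.5% of all genes. The 5 falls were each at least 4-fold and called in all 5 scalings, and the median difference was -2.71, all by brightest probe sets. Over the 15 TFIIH probe sets the median was -0.76, and with the mean over the probe sets of each gene it was -1.81.

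TFIID is made of the TATA-binding protein and its associated factors. Of its 15 measured genes 5 were called higher and 2 lower by limma, against 10.5% and 37.8% of all genes. By a test of equivalence (2 one-sided limma tests, adjusted p under 0.05) 11 were within 2-fold, against 62.7% of all genes. Its median difference was 0.27 as deposited, 0.90 in the median scaling, 0.77 in the quantile scaling, -0.13 in the hybridization scaling and -0.60 in the poly-A scaling. The gap between the medians of TFIID and TFIIH was 2.98 as deposited and 2.91 in the quantile scaling, and the other scalings shift both alike. It depended on the choice of probe set, and was 2.11 with the mean over the probe sets of each gene. The higher calls numbered 13 in the median scaling, where 55.5% of all probe sets were called higher, and 11 in the quantile scaling, where 34.8% were. They numbered 0 by limma in the hybridization and poly-A scalings, where 0.48% and 0.3% of all probe sets were.

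The called rises of TFIID were modest. Taf10, a histone-fold subunit also found in the coactivator SAGA, was at 9.10, 9.20 and 8.75 in GV and at 9.62, 10.25 and 10.28 in MII oocytes. All MII values were higher, by 1.03 ± 0.20 (SE; limma adjusted p = 0.0021), though a dim second Taf10 probe set was at -0.38 and not called. Taf6, another histone-fold subunit, was at 7.16, 6.94 and 6.74 in GV and at 7.49, 7.73 and 7.65 in MII oocytes, and rose by 0.68 ± 0.15, which turned to -0.19 in the poly-A scaling. Taf1, the largest subunit, was at 6.70, 6.16 and 6.17 in GV and at 7.08, 7.18 and 6.59 in MII oocytes, so that the stages overlapped. Its rise of 0.61 ± 0.20 (limma adjusted p = 0.035) turned to -0.27 in the poly-A scaling and was not called when GV replicate 2, GV replicate 3, MII replicate 1 or MII replicate 2 was left out, at 0.49 to 0.54. Taf2 and Taf4 rose by 0.37 and 0.48, and on their other probe sets by 0.80 and 0.58, but the first values turned to -0.50 and -0.40 in the poly-A scaling. With 1 array left out, TFIID had 2 to 4 rises: 2 without GV replicate 2, 4 without MII replicate 2 and 3 without each of the others. Of all probe sets 7.15% to 9.83% were then called higher.

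Against these stood 2 falls. Taf3, a subunit that binds methylated histone tails, was at 10.22, 10.58 and 10.66 in GV and at 8.48, 8.23 and 8.73 in MII oocytes, and fell by 2.00 ± 0.18 (SE; limma adjusted p = 7.1e-06), a call kept in all 5 scalings. Tbp, the TATA-binding protein that all 3 polymerases use, was at 7.96, 8.19 and 8.17 in GV and at 7.46, 7.55 and 7.48 in MII oocytes. It fell by 0.61 ± 0.13 (limma adjusted p = 0.004), and was at 0.01 in the median scaling and -0.01 in the quantile scaling, neither called. A dim second Tbp probe set was at 0.19 and not called. The mean over the Tbp probe sets, at -0.21, was not called either. Taf5, Taf7, Taf8, Taf9b, Taf11, Taf12 and Taf13 were not called by their brightest probe sets, with differences between -0.11 and 0.32 (a dimmer Taf7 probe set rose by 0.80), and Taf15 was at 1.02 ± 0.64 and not called, with 1 MII array at 6.63 and the others at 3.28 and 4.62.

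The coactivator SAGA, which acetylates histones, holds close relatives of TFIID subunits. Taf5, the scaffold of TFIID, was at 9.65, 9.74 and 9.50 in GV oocytes and, with all arrays at 9.88 or above, at 9.95 ± 0.06 (SD, n = 3) in MII oocytes. Its SAGA relative Taf5l was at 6.81, 7.16 and 6.80 in GV and at 4.88, 5.58 and 5.21 in MII oocytes. Taf5l fell by 1.70 ± 0.19 (SE; limma adjusted p = 4.55e-05), while Taf5 differed by 0.32 ± 0.13 and was not called (-0.09 in the hybridization and -0.55 in the poly-A scaling). Taf6l, the relative of Taf6, was at 6.19, 6.70 and 6.58 in GV and at 5.22, 4.78 and 4.94 in MII oocytes, and fell by 1.51 ± 0.18. Within arrays the difference of differences was -2.02 ± 0.18 (SE, n = 3 per stage) for Taf5l against Taf5 and -2.19 ± 0.33 for Taf6l against Taf6, with no overlap between stages and an exact 2-sided permutation p = 0.1, the smallest possible here (0.12 adjusted over 6 pairs).

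Supt20, a structural SAGA subunit, was at 9.21, 8.99 and 8.80 in GV and at 2.93, 2.93 and 3.64 in MII oocytes on its brightest probe set. This is a 57.0-fold fall, with a difference of -5.83 ± 0.21 (SE; limma adjusted p = 2.8e-08). The probe set is of the type _s_at, which may match several transcripts. A further Supt20 probe set fell by 2.14, while the third was at 5.32, 5.47 and 5.77 in GV and at 5.84, 6.11 and 6.25 in MII oocytes, a called rise of 0.55. The 3 genes grouped here under SAGA, which leaves out subunits shared with TFIID such as Taf10, were called lower by their brightest probe sets in each of the 5 scalings. As deposited 37.8% of all genes were called lower. Across the scalings 19.9% to 84.9% of all probe sets were.

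Among the other factors of RNA polymerase II, Gtf2f1 and Gtf2f2, the subunits of TFIIF, were both lower. Gtf2f1 was at 9.14, 9.83 and 9.62 in GV and at 4.81, 5.21 and 5.05 in MII oocytes, and fell by 4.51 ± 0.20 (SE; limma adjusted p = 6.4e-08), while a dimmer probe set fell by 0.51. Gtf2f2 fell by 2.90 ± 0.17, and Gtf2e2, a subunit of TFIIE, by 3.01 ± 0.17. These 3 falls were called in all 5 scalings. Over the 7 genes of TFIIA, TFIIB, TFIIE and TFIIF, 3 were lower and 1 higher by limma, near the shares of 37.8% and 10.5% of all genes. The median of -0.22 turned to 0.40 in the median scaling.

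The genes of TFIIA and TFIIB were not called lower as deposited, while Gtf2b, Gtf2a1 and Gtf2a1l were in the poly-A scaling. Gtf2b, which is TFIIB, was at 11.26, 11.91 and 11.62 in GV and at 11.30, 11.39 and 11.48 in MII oocytes, and its difference of -0.21 was not called (95% confidence interval -0.60 to 0.19). Of TFIIA, Gtf2a2 rose by 0.72 ± 0.16 (SE), which turned to -0.16 in the poly-A scaling, and Gtf2a1 was at 0.09 on its brightest probe set, with -0.32 and -0.79 in the hybridization and poly-A scalings and called higher at 0.71 and 0.61 in the median and quantile scalings. The germ cell relative Gtf2a1l was at -0.22 (0.40 and 0.34 in the median and quantile scalings, both called higher), and relative to Gtf2a1 it differed by -0.31 ± 0.17 within arrays, where the stages overlapped (exact 2-sided permutation p = 0.3, also 0.3 after adjustment). Gtf2ird1, named for its TFII-I-like repeats, fell by 1.14 ± 0.25, a fall not called in the median scaling (-0.52) or in the quantile scaling (-0.47), and Gtf2ird2 was not called at -0.17.

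Among the factors of the other polymerases, SL1 places polymerase I on ribosomal DNA. Of its 3 measured genes 2 were called lower, both in all 5 scalings, where 37.8% of all genes were called lower as deposited. Taf1a was at 11.06, 11.18 and 10.93 in GV and at 8.71, 8.92 and 8.85 in MII oocytes, and fell by 2.23 ± 0.14 (SE; limma adjusted p = 5.9e-07). Taf1d fell by 2.03 ± 0.25 on its brightest probe set, which is of type _x_at. Other Taf1d probe sets were called lower at -0.55 and -0.90, and the dimmest, near the low end of the range, was called higher at 0.43. The median difference of SL1 was -2.03, and -0.55 without _s_at and _x_at probe sets. Taf1b was not called at -0.30.

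TFIIIA and TFIIIC recruit polymerase III to its genes. Of their 6 measured genes 2 were lower and 1 higher by limma, near the shares of 37.8% and 10.5% of all genes. The median difference of 0.19 turned to -0.21 in the hybridization and -0.68 in the poly-A scaling. Gtf3c6, a small TFIIIC subunit, was at 5.33, 5.99 and 5.82 in GV and at 2.53, 3.85 and 3.13 in MII oocytes, and fell by 2.55 ± 0.30 (SE). Gtf3a, which is TFIIIA, fell by 0.78 ± 0.17, a fall not called in the median scaling (-0.15) or in the quantile scaling (-0.19). Gtf3c3 rose by 0.42 ± 0.15 (limma adjusted p = 0.046), which turned to -0.45 in the poly-A scaling and lost its call without any 1 GV array or without MII replicate 2 or 3, at 0.34 to 0.46, and with a replicate block. Gtf3c1, Gtf3c2 and Gtf3c4 were not called by their brightest probe sets, at 0.35, 0.65 and 0.04.

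Probe sets of a gene did not always move together. Of the 69 genes 30 had several probe sets, and for 3 of them (Ccnh, Supt20 and Taf1d) probe sets were called in opposite directions, against 10.8% of all genes with several. In 6 of the 30 genes every probe set was called lower and in 2 every one was called higher, in 16 some were called and others not, and in 3 none was called. The rising Ccnh probe set was at 2.74, 2.58 and 2.56 in GV and at 3.02, 3.02 and 3.02 in MII oocytes, near the lowest value on the arrays, 1.85, while the third Ccnh probe set fell by 3.03. Of the 116 probe sets 57 had a difference within 2-fold by the test of equivalence, against 64.3% of all probe sets. By limma 0 were in the hybridization and 13 in the poly-A scaling, without a share over all probe sets to set beside them. In the hybridization scaling the SE was larger, for Taf6 0.37 against 0.15 as deposited. These counts are therefore not read as a result about the members.

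**Figure D3:**
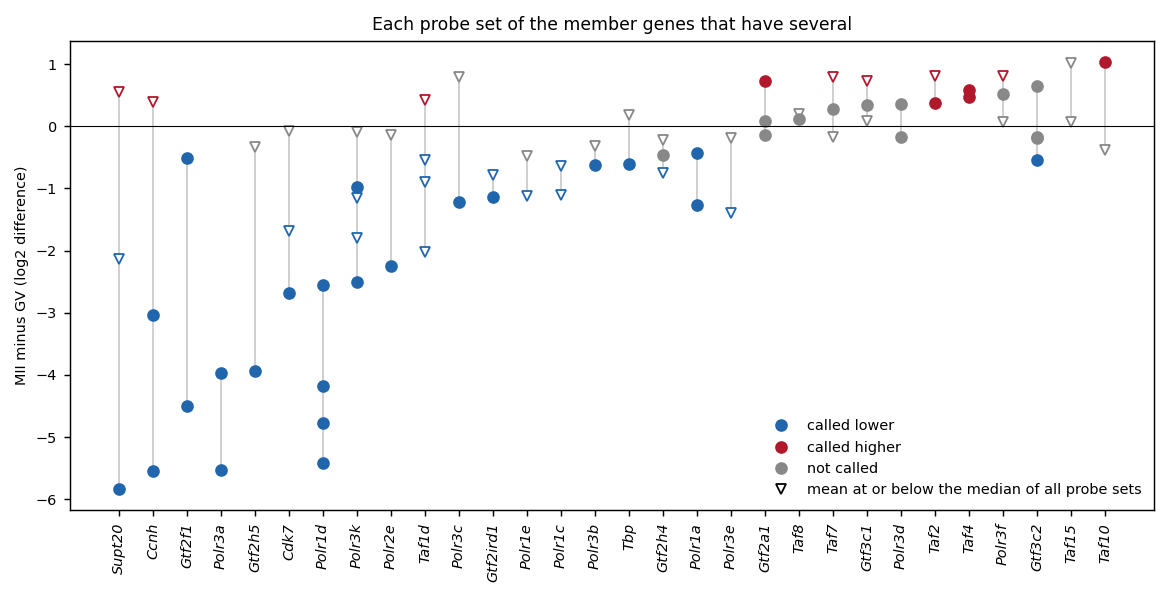
Log2 difference between MII and GV oocytes (y axis) for each probe set of the 30 genes with several, ordered by the difference of the brightest; filled circles have means over 5.85 and open triangles do not, and a grey line joins the probe sets of a gene. The probe sets of Polr1d all lie below -2, while those of Supt20 and Ccnh span 0.

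**Figure D4:**
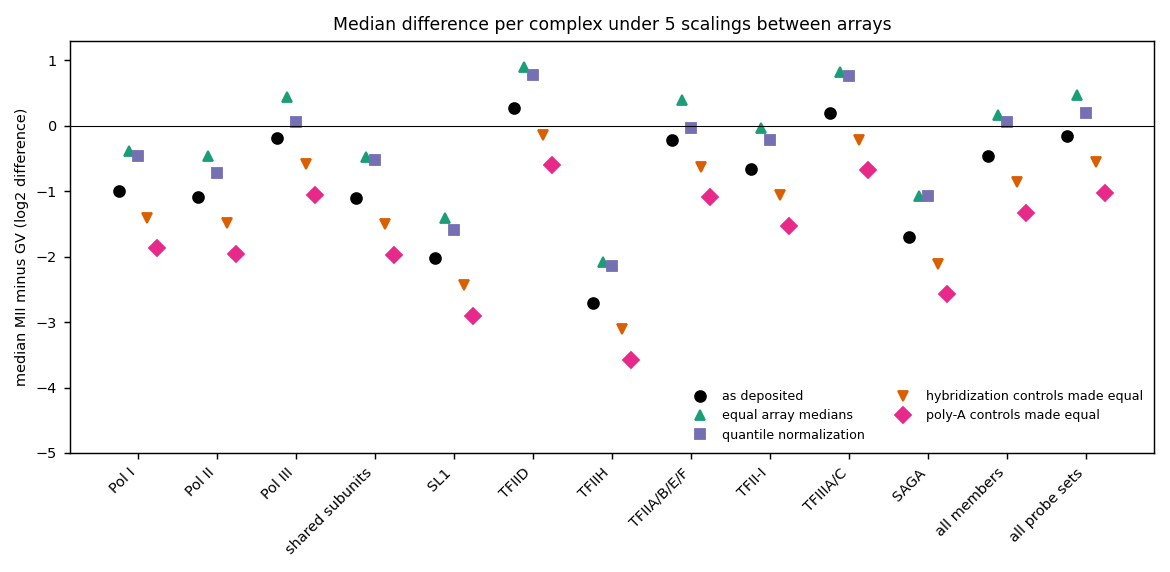
Median log2 difference between MII and GV oocytes (y axis) over the genes of each complex, over all 69 genes and over all probe sets, under 5 scalings between arrays (symbols). The median of TFIIH lies below -2 in each, while that of TFIID runs from -0.60 to 0.90.

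Around the machinery itself, a wider list of 55 regulators, elongation factors and assembly factors was examined, of which 46 genes were measured. By their brightest probe sets 28 were called lower and 2 higher by limma, against the shares of 37.8% and 10.5% of all genes, with a median difference of -0.63. The steepest falls were those of Gpn1, a GTPase that helps to bring RNA polymerase II into the nucleus, at -4.65 ± 0.15 (SE), Brf2, which recruits polymerase III to a class of small RNA genes, at -3.60 ± 0.14, and Drap1, which represses TFIID together with Dr1, at -3.06 ± 0.19. Both rises were in elongation factors. Ctr9, a subunit of the PAF complex, was called higher at 0.70 ± 0.21 and Cdk12, a kinase of the polymerase tail, at 0.58 ± 0.16, but in the poly-A scaling they were at -0.18 and -0.29. Both lost their calls without GV replicate 1 or 2, and each gene also had a probe set called lower.

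By group, pausing and elongation factors had 10 falls among 22 genes, near the 37.8% of all genes called lower, and a median of -0.17. Polymerase III factors had 6 among 8 and a median of -0.87, and assembly factors and tail phosphatases of RNA polymerase II had 7 among 10 and a median of -0.59. The falls of the list numbered 16 in the median scaling and 18 in the quantile scaling, where the rises numbered 16 in both. Of all probe sets 19.9% were called lower and 55.5% higher in the median scaling, and 22.1% and 34.8% in the quantile scaling.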

How the data were processed

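Expression was measured on 1 array per sample, in 3 GV and 3 MII samples. The authors deposited log2 values, made with RMA and affy per the submitters' processing notes. Their versions, filters and settings were not given in the sources used for this text. The array of GV replicate 1 held 7077 distinct values. The lowest and highest values of tested probe sets, 1.85 and 13.30, were the same on every array. The table had 21702 probe sets, 56 of them control features that were not tested. Names came from the platform's probe table, in which 19078 tested probe sets had 1 symbol, 550 several and 2018 none.

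The stage difference, MII minus GV, was estimated by lmFit and eBayes of limma 3.58.1 (R 4.3.3) with 9.78 total degrees of freedom. Its 2-sided p-values were adjusted by Benjamini-Hochberg over 21646 probe sets. Each gene was represented by its brightest probe set, that with the highest mean over the arrays of both stages. Because MII values enter that mean, of probe sets alike in GV oocytes the one that fell less is chosen. For Polr3a a probe set at 11.16 in GV oocytes that fell by 5.53 gave way to one at 10.56 that fell by 3.97. The equivalence test used bounds of 2-fold. The script was tested on simulated data. The scalings, the filter on dim probe sets, the removal of _s_at and _x_at types, an unmoderated fit, the mean over probe sets, the replicate block and leaving out each array were alternatives.

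The members and lists were chosen with earlier results of these data known. Genes were named by rule: the large polymerase subunits, Tbp, Taf1, Supt20 and the named TFIIH genes; up to 3 falls and 2 rises per complex with no overlap; genes with opposite probe sets; paralogue pairs; and up to 3 falls and 3 rises of the wider list. Other members were named after their values were seen.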

Additional observations from a re-analysis of the deposited data

How the results depend on the processing

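Only replicates 2 and 3 are numbered in the titles. Deviations of same-numbered arrays correlated at 0.09, 0.03 and 0.03, so the numbers were not taken to pair the samples. With the replicate block 52 member probe sets were lower and 15 higher, and 34 and 6 genes, where 33.7% and 11.1% of all probe sets were. Polr1a and Gtf3c3 were not called.

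With equal array medians, where 55.5% of all probe sets were higher, higher calls numbered 52 probe sets, 29 member genes, 2 in polymerase II, 4 in polymerase III, 1 among shared subunits, 13 in TFIID, 1 in TFIIH, 3 in TFIIA, B, E and F, 1 in TFII-I, 4 in TFIIIA and TFIIIC and 16 in the wider list; lower calls numbered 1 in TFIID, 0 in TFII-I, 1 in TFIIIA and TFIIIC and 16 in the wider list. After quantile normalization, where 34.8% were, the higher calls were, in the same order, 41, 24, 2, 2, 1, 11, 1, 3, unchanged at 0 for TFII-I, 4 and 16, and the lower calls 1, 0, 1 and 18. With hybridization controls equal, 0.48% of all probe sets were higher. Higher calls by limma were then 0 for probe sets, genes, TFIID, TFIIA to F, TFIIIA and TFIIIC and the wider list. Within 2-fold were 0 member probe sets, where the GV arrays ran from 8.94 to 9.82 in these controls. With poly-A controls equal, where 0.3% of all probe sets were higher, the same higher calls were 0, and 13 probe sets were within 2-fold. Lower calls were 96 probe sets (84.9% of all probe sets were lower), 59 genes, 7 in polymerase III, 5 shared subunits, 10 in TFIID, 8 in TFIIH, 6 in TFIIA to F, 2 in TFII-I, 4 in TFIIIA and TFIIIC and 44 in the wider list.

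Among the genes named by rule, these values changed sign. With equal medians Polr1a was at 0.19, Polr3b at 0.0063, Tbp at 0.013, Polr3gl at 0.55 and Gtf2a1l at 0.40; after quantile normalization Polr1a was at 0.23, Polr3b at 0.054, Polr3gl at 0.063 and Gtf2a1l at 0.34. With hybridization controls equal Polr2a was at -0.18, Gtf2a1 at -0.32 and Taf5 at -0.085. With poly-A controls equal Polr2a was at -0.65, Taf1 -0.27, Taf6 -0.19, Gtf2a2 -0.16, Gtf3c3 -0.45, Polr3g -0.42, Gtf2a1 -0.79, Taf5 -0.55, Ctr9 -0.18 and Cdk12 -0.29. With 1 array left out Polr3g ran from -0.21 (without MII replicate 3) to 0.93, and Polr3gl was at 0.029 without GV replicate 3 and 0.019 without MII replicate 3, Supt20 at 0.55 without _s_at and _x_at types, and Cdk12 at -0.41 as a mean over probe sets.

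Above the median, of 68 member probe sets 34 were lower, 10 higher and 30 within 2-fold, where 41% of all such probe sets were lower and 16.2% higher. There 1 gene was lower in polymerase I, SL1 and TFIIIA and TFIIIC each and 1 higher in polymerase III. Fewer probe sets were tested. Without _s_at and _x_at types 1 SAGA gene was higher, where 10.9% of all probe sets were. Without moderation 10 probe sets were higher, with 1 gene in polymerase III and 0 in TFIIIA and TFIIIC and in the wider list, and 0 lower in TFII-I. Of all probe sets 5.91% were then higher and 28.6% lower. With means over probe sets 1 TFIID gene was lower, 2 TFIIIA and TFIIIC genes higher and 0 of the wider list, where 40% of all genes were lower and 10% higher. Bounds of 1.5-fold left 20 probe sets, and shared subunits counted by symbol gave polymerase I 5 lower genes. The cause of these moves was not tested.

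Leaving out 1 array gave 6 to 13 higher probe sets (6 without GV replicate 2), 3 to 6 higher genes, 2 to 4 in TFIID, 0 to 1 in polymerase III and in TFIIIA and TFIIIC, and 0 to 2 in the wider list, and 32 to 34 lower genes. Of all probe sets 7.15% to 9.83% were then called higher and 30.8% to 32.1% lower. The number of arrays limits the precision.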
